A study of Mus musculus with 6 samples.

Results

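The genes described here are 8 genes of the alternative complement pathway and of complement receptors, chosen by symbol from a table of 55401 mouse genes: C3, Cfb, Cfp, C3ar1, C5ar1, C5ar2, Cd55 and Cr1l. Messenger RNA was sequenced from bone marrow-derived macrophages, which are grown from bone marrow cells of C57BL/6 mice. The culture lasted 7 days with the growth factor M-CSF at 40 ng/mL and 10% serum. The 6 libraries are 3 labelled wild type (WT) and 3 labelled Mettl3-/- (KO), that is, lacking the gene for the methyltransferase that adds N6-methyladenosine to messenger RNA. All came from the same kind of culture, and a later treatment is mentioned but not named in the labels. How Mettl3 was deleted, and the age and sex of the mice, are not stated in the labels.

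Complement is a cascade of plasma and cell surface proteins that tags particles for uptake and calls in leukocytes. In its alternative pathway, the product of C3 binds factor B, the product of Cfb, to form an enzyme that cleaves more C3, and properdin, the product of Cfp, holds that enzyme together. The peptides released during cleavage act on receptors encoded by C3ar1, C5ar1 and C5ar2, while CD55 (Cd55) and the rodent protein Crry (Cr1l) protect the cell's own surface by limiting the enzyme. Liver makes most C3 of the plasma, and macrophages are a local source of C3, factor B and properdin.

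Library totals ran from 67280390 to 77997742 estimated counts. Of the 16256 genes tested with edgeR, 12.7% differed between the groups at an adjusted p under 0.05. Mettl3 itself showed no fall with the KO label, at 2.62, 2.91 and 2.26 in the WT libraries against 2.504, 2.56 and 2.93 in the labelled KO ones, in FPKM (fragment counts normalised for transcript length and sequencing depth). Its log2 fold change was 0.02 (edgeR adjusted p = 0.93) and changed sign without WT replicate 3 (-0.07) or KO replicate 3 (-0.06). The total transcript level of the targeted gene therefore did not follow the label, and directions below are those of "the libraries labelled KO". A total per gene does not show whether part of the gene was removed, and loss of its function was not tested. Mettl3 overlaps Tox4 on the opposite strand, and how reads there were assigned was not tested. All 6 macrophage markers looked at, among them Csf1r, Adgre1 and Cd68, were above 1 FPKM in every library, and their own levels moved in both directions, as given with the other markers at the end. Whether the replicates are separate mice, separate cultures or repeats of 1 culture is not stated, and p-values reflect only the spread between these libraries.

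Of the 8 genes, 7 had enough reads to be tested, and 4 differed between the groups: C3, Cfb and C3ar1 were higher and Cd55 was lower in the libraries labelled KO. Over all tested genes, 7.01% were called higher and 5.67% lower. Calls are more frequent where levels are high, and of the 416 tested genes with a mean of at least 100 FPKM, 50.7% were called. C3, Cfb, Cfp and C3ar1 belong to those 416 genes, so a call alone says little about them, and the sizes of the changes are given below. Cfp, C5ar1 and Cr1l were not called, and C5ar2 was barely detected.

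In WT the order of levels per transcript length ran from Cfp (558 FPKM) through C3 (377 FPKM), C3ar1 (285 FPKM), Cfb (274 FPKM) and Cd55 (43.3 FPKM) to C5ar1 (8.63 FPKM), Cr1l (8.07 FPKM) and C5ar2. Of the neighbours in this order, C5ar1 and Cr1l overlapped between WT libraries and the others did not. In the libraries labelled KO, Cfb and C3ar1 changed places. The level of Cfb was 0.962, 0.949 and 0.979 times that of C3ar1 in the WT libraries and 1.31, 1.32 and 1.31 times in those labelled KO. The remaining order was the same, and C5ar1 and Cr1l no longer overlapped.

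**Figure D1:**
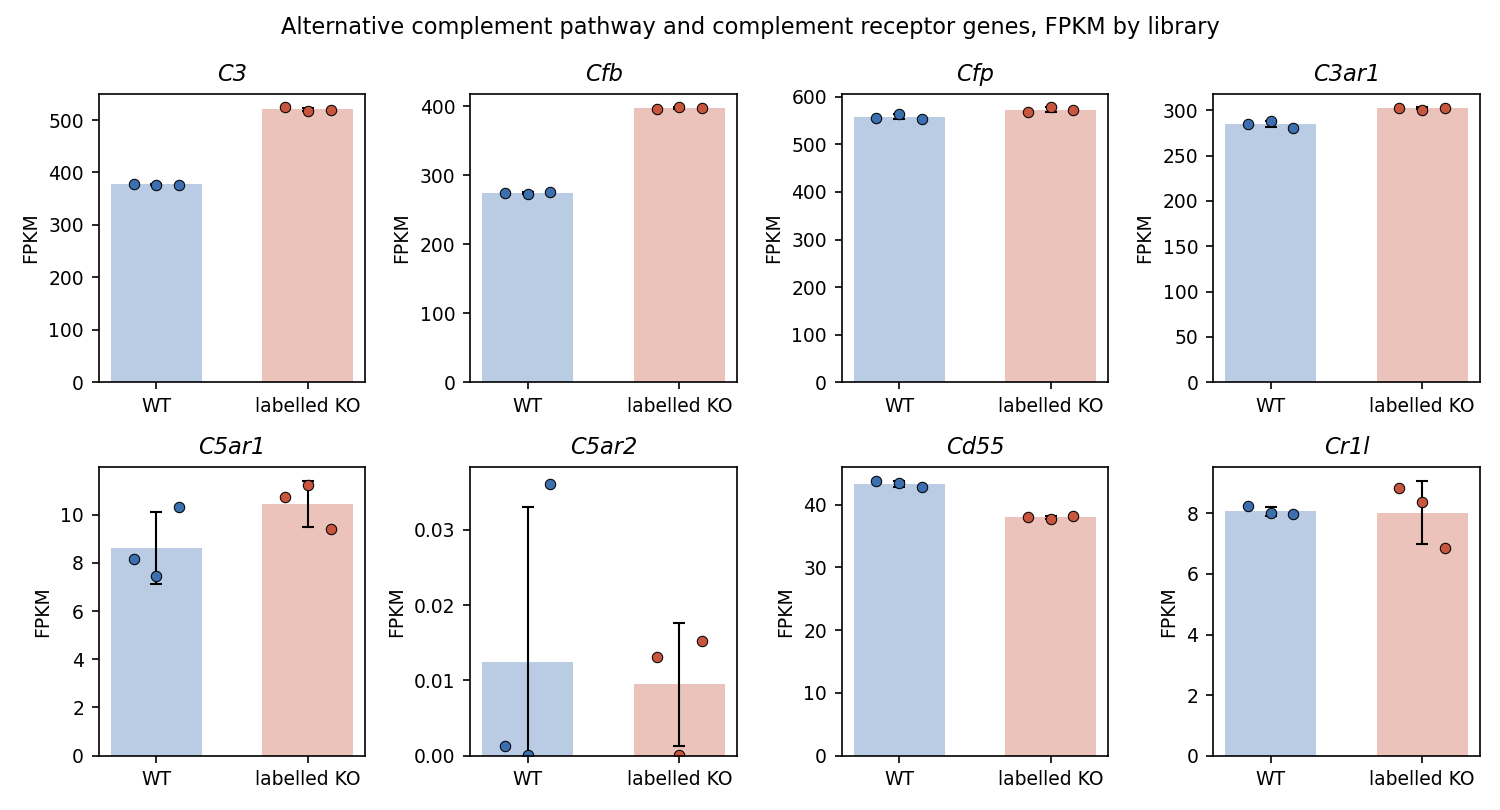
FPKM of the 8 genes (vertical axes, each from 0 and on its own scale) in 3 WT and 3 labelled KO libraries. Points are libraries, bars are group means and error bars are SD. C3 and Cfb stand apart by group, Cd55 is lower in every library labelled KO, and C5ar1, C5ar2 and Cr1l overlap.

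The sequences before the start sites of the called genes are shown because C3 and Cd55 moved in opposite directions. RefSeq windows (GRCm38.p6) were found for 7 of the 8 genes, with no entry for Cfb. Each line gives the 250 bases before the annotated start, 5′ to 3′ on the gene's own strand, which is the minus strand for all 3. The windows are chr17:57228137-57228386 for C3, chr6:122856158-122856407 for C3ar1 and chr1:130462745-130462994 for Cd55. Capitals mark matches to any of 5 motifs searched on both strands.
C3: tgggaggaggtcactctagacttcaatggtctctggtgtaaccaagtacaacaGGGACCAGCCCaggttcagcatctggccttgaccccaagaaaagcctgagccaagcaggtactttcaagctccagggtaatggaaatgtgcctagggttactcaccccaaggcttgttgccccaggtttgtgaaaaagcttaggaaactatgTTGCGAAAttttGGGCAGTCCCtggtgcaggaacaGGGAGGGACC
C3ar1: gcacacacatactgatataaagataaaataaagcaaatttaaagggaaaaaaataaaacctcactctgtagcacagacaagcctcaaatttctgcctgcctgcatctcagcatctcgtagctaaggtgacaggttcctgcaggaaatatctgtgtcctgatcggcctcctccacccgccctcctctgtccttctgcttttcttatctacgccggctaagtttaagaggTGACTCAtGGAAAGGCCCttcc
Cd55: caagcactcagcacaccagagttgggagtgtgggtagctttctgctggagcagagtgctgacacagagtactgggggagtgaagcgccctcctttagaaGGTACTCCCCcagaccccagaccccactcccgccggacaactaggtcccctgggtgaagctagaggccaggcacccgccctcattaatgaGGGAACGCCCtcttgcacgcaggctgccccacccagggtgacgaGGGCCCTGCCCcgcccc

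The motifs searched were those of NF-kB (GGGNNNNNCC), C/EBP (TTGCNNAA), the interferon-stimulated response element (GAAANNGAAA), PU.1 (GAGGAA) and AP-1 (TGANTCA). The C3 window held a C/EBP match, ttgcgaaa, that begins 45 bases before the start, and 9.56% of all 32851 promoter windows of this length hold such a match. A window of C5ar2, which was barely detected, also held C/EBP matches. The C3ar1 window held an AP-1 match, tgactca, 22 bases before the start, against 6.75% of all windows. Matches to the loose NF-kB pattern were in the windows of C3, C3ar1 and Cd55. They were also in windows of Cfp, C5ar2 and Cr1l and in 45.8% of all windows, so the pattern does not set the called genes apart. In the C3 and Cd55 windows some of these matches overlap one another. None of the windows of the 7 genes matched the interferon-stimulated pattern, which was in 2.98% of all windows. A match is a string of letters and was not tested as a binding site.

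C3, the component that every complement route activates, was higher in the libraries labelled KO. The gene is ENSMUSG00000024164, at chr17:57203970-57228136 of mm10 (minus strand). Its FPKM was 378, 377 and 377 in WT libraries against 524, 518 and 519 in labelled KO libraries, from 147313 to 233942 estimated counts. The libraries of each group lay close together and the groups did not overlap. The means were 377 ± 0.866 and 520.2 ± 3.66 FPKM (SD, n = 3 each), 37.9% more in labelled KO. On the log2 scale C3 rose by 0.45 (SE 0.0091; 95% limits 0.43 to 0.47; edgeR adjusted p = 5.47e-06). Of the 416 genes at or above 100 FPKM, 21 had a larger log2 fold change. An exact two-sided permutation test of the FPKM values gave p = 0.1, the smallest value that 3 against 3 allows. The same p held for Cfb, Cfp, C3ar1 and Cd55. Over all tested genes, the groups of 33.8% did not overlap in FPKM, in either direction.

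Cfb, which encodes the protease of the alternative pathway's C3-cleaving enzyme, rose with C3 and by slightly more. The gene is ENSMUSG00000090231, at chr17:34856374-34862518 of mm10 (minus strand). FPKM values were 275, 273 and 275 for WT against 396, 398 and 397 for labelled KO. The groups were separated by more than 100 FPKM, with an SD of 0.961 FPKM in WT and 1.33 FPKM in labelled KO. Cfb rose by 0.52 on the log2 scale (SE 0.012; 95% limits 0.49 to 0.55; edgeR adjusted p = 6.6e-06), and 14 of the 416 genes at or above 100 FPKM had a larger one. The read-through gene Gm20547, which joins C2 and Cfb on the same strand, shares 73.0% of the 50-base stretches of Cfb transcripts. Gm20547 had a count of 0 in all 6 libraries, and how reads of a read-through transcript were assigned was not tested. C2, the other gene it joins, read 1.65 FPKM in WT and 2.61 FPKM in labelled KO, against 274 and 397 FPKM for Cfb.

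The ratio of C3 to Cfb was slightly lower in labelled KO. It was 1.377, 1.379 and 1.372 in WT and 1.325, 1.2996 and 1.308 in labelled KO, a log2 difference of -0.07 (SE 0.0086; exact two-sided permutation p = 0.1, adjusted over 2 ratios 0.1). The groups did not overlap, and the p is the smallest possible. While both genes rose, their proportion moved by less than either level did.

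Cfp, which encodes properdin, the protein that prolongs the life of the C3-cleaving enzyme, was the highest of the 8 genes and was not called. The gene is ENSMUSG00000001128, at chrX:20925454-20931555 of mm10 (minus strand). FPKM values were 556, 564 and 554 for WT against 568, 578 and 572 for labelled KO. The groups did not overlap in FPKM, as for 33.8% of all tested genes in either direction, and were apart by a few units. In CPM (counts normalised to library size) scaled by edgeR's TMM factors they overlapped, at 1091, 1108 and 1087 in WT and 1101, 1122 and 1111 in labelled KO. The fitted log2 fold change of Cfp was 0.02 (SE 0.014; edgeR adjusted p = 0.438), and its 95% limits of -0.01 and 0.06 leave a ratio between 0.990 and 1.04. The rise of C3 and Cfb was therefore larger than any change these limits allow for Cfp.

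**Figure D2:**
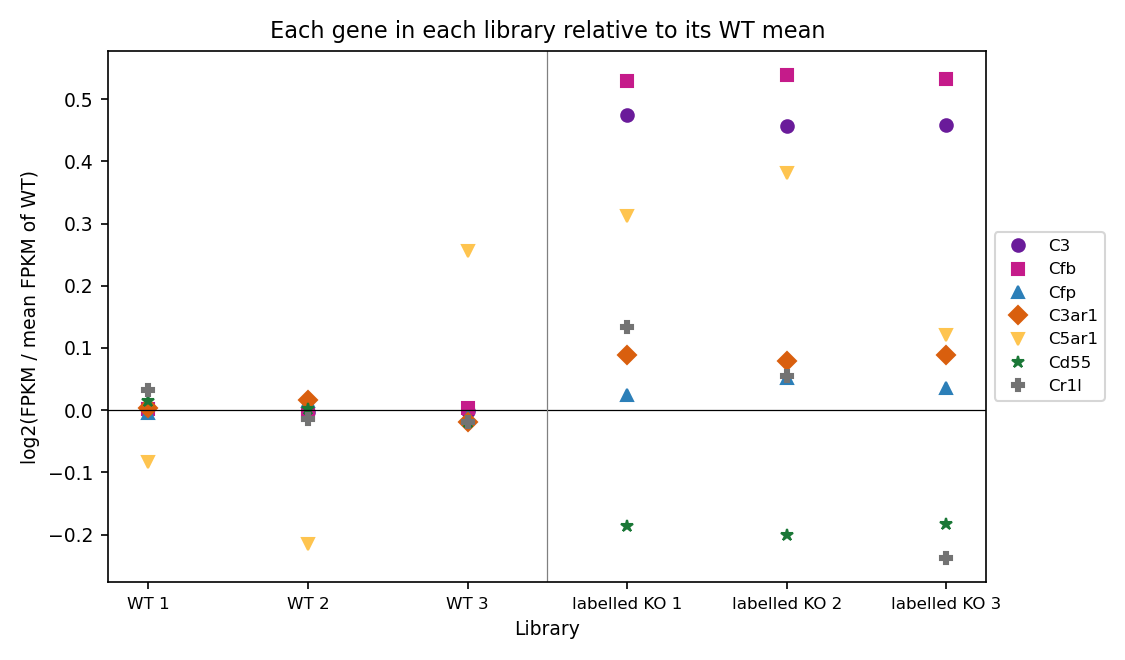
log2 of FPKM over the gene's mean in WT (vertical axis) for 7 of the 8 genes in each of the 6 libraries (horizontal axis, with WT to the left of the line). In the libraries labelled KO, C3 and Cfb lie above the other genes, with Cfb above C3, Cd55 lies below 0 there, and C5ar1 and Cr1l scatter between replicates; C5ar2 is left out because it is at a count of 0 in 2 libraries.

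Among the receptors of the 8 genes, C3ar1 was the most abundant and its difference between groups was small. C3ar1 encodes the receptor of the C3a peptide (ENSMUSG00000040552, chr6:122847138-122856161, minus strand). FPKM values were 285, 288 and 281 for WT against 303, 301 and 303 for labelled KO. The groups did not overlap, and the gap between the highest WT and the lowest labelled KO library was wider than the spread within either group. C3ar1 rose by 0.07 on the log2 scale (SE 0.013, edgeR adjusted p = 0.021), a ratio of 1.05 with 95% limits of 1.03 and 1.07. This call was lost in 8 of 15 alternatives with adjusted p from 0.0533 to 0.0962, among them without any 1 library other than WT replicate 2, with DESeq2 (adjusted p = 0.0962) and with a replicate block (edgeR adjusted p = 0.0825). The direction was the same in all 15 alternatives, and 27.4% of the genes at or above 100 FPKM had a larger log2 fold change.

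C5ar1, the receptor through which the C5a peptide draws leukocytes, was much lower and varied more between replicates. The gene is ENSMUSG00000049130, at chr7:16246743-16259540 of mm10 (minus strand). FPKM values were 8.15, 7.44 and 10.3 for WT against 10.7, 11.3 and 9.39 for labelled KO, from 1465 to 2322 estimated counts. WT replicate 3 lay above KO replicate 3, so the groups overlapped. Its coefficient of variation was 17.3% in WT and 9.15% in labelled KO, against 0.230% and 0.703% for C3. For C5ar1 the log2 fold change was 0.26 (SE 0.13; edgeR adjusted p = 0.282), and the 95% limits of -0.06 and 0.58 include both no change and a change as large as that of Cfb. Leaving out 1 library moved it from 0.16 (without WT replicate 2) to 0.41 (without WT replicate 3), and neither was called.

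C5ar2, which encodes a second C5a receptor that does not signal through G proteins, lies beside C5ar1, at chr7:16234585-16244154 (ENSMUSG00000074361). It had estimated counts of 1, 0 and 11 in WT and 4, 0 and 5 in labelled KO. A count of 0 allows up to 3 counts, or 0.0385 to 0.0446 CPM over the 6 libraries, by counting error only. C5ar2 was left out of the test for its low counts, and no ratio of C5ar1 to C5ar2 is given.

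Of the membrane inhibitors, Cd55 was lower in the libraries labelled KO. Cd55 encodes decay-accelerating factor, which takes apart the C3-cleaving enzyme on the cell surface (ENSMUSG00000026399, chr1:130439027-130462744, minus strand). FPKM values were 43.8, 43.4 and 42.8 for WT against 38.1, 37.7 and 38.2 for labelled KO. Every WT library was above every library labelled KO. The means were 43.3 ± 0.510 and 38.0 ± 0.249 FPKM (SD, n = 3 each). Cd55 fell by 0.21 on the log2 scale (SE 0.022; edgeR adjusted p = 0.00236), a ratio of 0.867 with 95% limits of 0.836 and 0.900. This is smaller than the median size of change over all called genes, 0.30 on the log2 scale. Its paralog Cd55b, together with an antisense gene, shares 9.12% of the 50-base stretches of Cd55 transcripts. Cd55b had 0 to 141 estimated counts, against 14060 to 16254 for Cd55.

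The balance of C3 to Cd55, the component against an inhibitor of its cleavage, was higher in every library labelled KO. The ratio of their FPKM values was 8.64, 8.68 and 8.81 in WT and 13.8, 13.7 and 13.6 in labelled KO, a log2 difference of 0.65 (SE 0.01; exact two-sided permutation p = 0.1, adjusted over 2 ratios 0.1, the smallest possible). C3 was higher and Cd55 lower in every library labelled KO. The separation of the ratio and its p therefore follow from those values and add no further support. This is a ratio of transcript levels and carries no measure of protein.

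Cr1l, which encodes the rodent inhibitor Crry, was not called. The gene is ENSMUSG00000016481, at chr1:195097382-195131561 of mm10 (minus strand). FPKM values were 8.25, 7.99 and 7.96 for WT against 8.85, 8.39 and 6.84 for labelled KO. KO replicates 1 and 2 were above all WT libraries and KO replicate 3 below them. Its log2 fold change was -0.02 (SE 0.092; edgeR adjusted p = 0.901; 95% limits -0.25 to 0.20), and it was 0.07 without KO replicate 3. These limits include a fall as large as that of Cd55, so the data do not show whether both inhibitors moved alike.

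**Figure D3:**
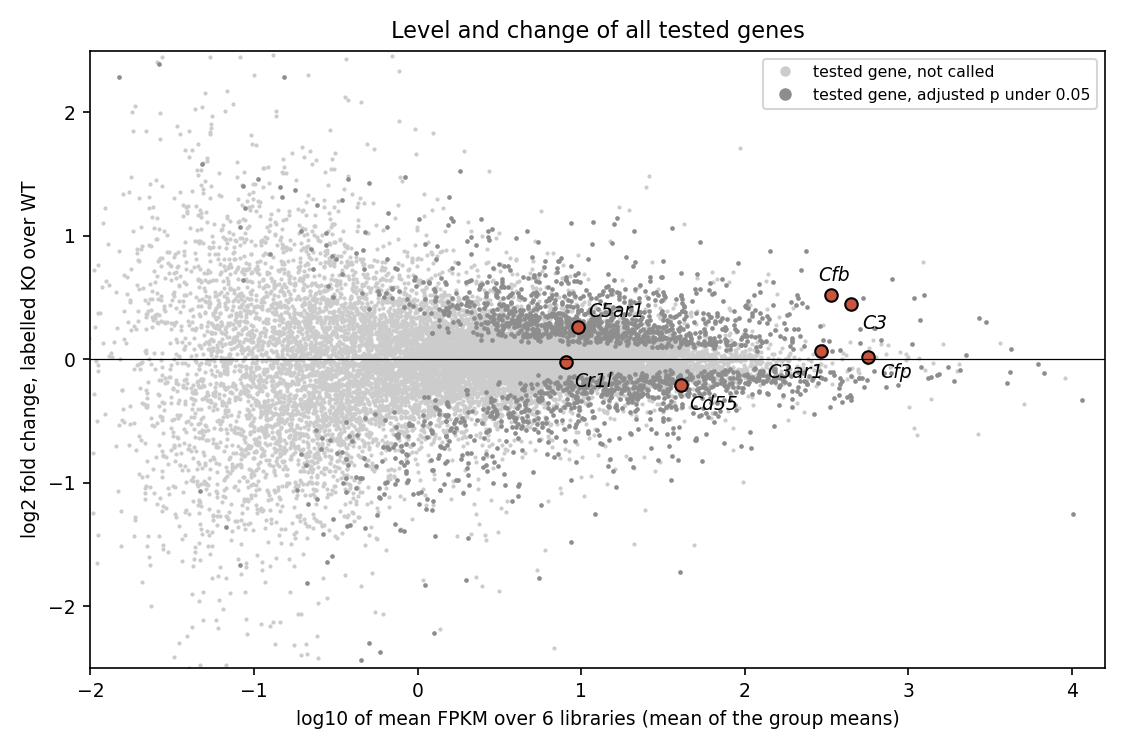
The log2 fold change between labelled KO and WT (vertical axis) against log10 of mean FPKM (horizontal axis) for all tested genes, with 7 of the 8 genes named; 82 genes lie outside the axes. C3 and Cfb lie at the upper edge of the genes of their level, while Cfp and C3ar1 lie near 0.

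The remaining complement genes were taken as a list of 51, of which 29 could be tested. In the libraries labelled KO 9 of them rose and 1 fell, with a median log2 fold change of 0.26 against -0.0049 over all tested genes, of which 7.01% were higher and 5.67% lower. The median was not alike over the list. It was 0.49 for classical genes, 0.10 for receptors, 0.004 for fluid phase regulators, -0.01 for lectin genes and -0.09 for the terminal steps. For membrane regulators it was 0.72, with 0 called and low counts in several. C1qa, C1qb, C1qc, Itgb2 and Calr, 5 of the 10 called, lie above 100 FPKM, where 50.7% of all genes were called. The classical pathway, which antibody and the C1 complex start, held 7 of the 9 rises among its 10 genes, and none of these 10 fell. The C1q chain genes C1qa, C1qb and C1qc rose by 0.49, 0.34 and 0.32 on the log2 scale (edgeR adjusted p = 2.503e-05, 2.86e-05 and 5.23e-05). C1qb read 2384 ± 17.7 FPKM in WT and 3045 ± 33.1 FPKM in labelled KO (SD, n = 3 each), above all of the 8 genes described here. C1ra, a C1 protease gene, rose by 0.66 from 23.8 ± 0.873 FPKM (edgeR adjusted p = 0.000286). C2, the classical counterpart and neighbour of Cfb, was at only 1.65 ± 0.196 FPKM in WT and 2.61 ± 0.176 FPKM in labelled KO (log2 fold change 0.64, edgeR adjusted p = 0.0132). The call of C2 was lost with a replicate block (edgeR adjusted p = 0.0642), without WT replicate 2 (0.0505) and without KO replicate 3 (0.0518). C1ra has a close paralog in the same list that can share its reads.

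Several steps that flank C3 had few or no reads. Cfd, the protease that activates factor B, and Hc, which encodes C5, had a count of 0 in all 6 libraries. Of the 7 genes of the terminal steps, C8g alone was tested and was not called (1.65 FPKM in WT, 1.57 FPKM in labelled KO). Among lectin pathway genes 0 of 4 tested were called, and the highest was Colec12, at 1.97 FPKM in WT and 2.15 FPKM in labelled KO. Among fluid phase regulators 0 of 3 tested were called. Among the other membrane regulators 0 of 5 tested were called, and the highest was Cd59a, which blocks the membrane pore, at 3.19 ± 0.602 and 2.14 ± 1.11 FPKM.

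Of 6 tested receptors for other complement fragments, 2 rose and 1 fell. The shares over all tested genes were 7.01% higher and 5.67% lower. Itgb2 and Calr lie above 100 FPKM, where 50.7% were called, so this count alone says little about the receptors. Itgb2, the beta chain of the integrin that binds cleaved C3, went from 287 ± 4.27 to 313 ± 8.65 FPKM (SD, n = 3 each; log2 fold change 0.11, edgeR adjusted p = 0.0364). That call was lost in 7 of 15 alternatives, among them without any 1 library other than KO replicate 1. Itgam and Itgax, the other integrin chains of the list, were not called. For Itgam the log2 fold change was 0.35 (95% limits -0.23 to 0.92; edgeR adjusted p = 0.426). Calr, a chaperone that can also serve as a C1q receptor, rose by 0.43 (edgeR adjusted p = 0.000132). Cd93, a surface protein once described as a C1q receptor, was at 85.3 ± 0.551 FPKM in WT and 77.5 ± 1.21 FPKM in labelled KO (log2 fold change -0.15, edgeR adjusted p = 0.00297).

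**Figure D4:**
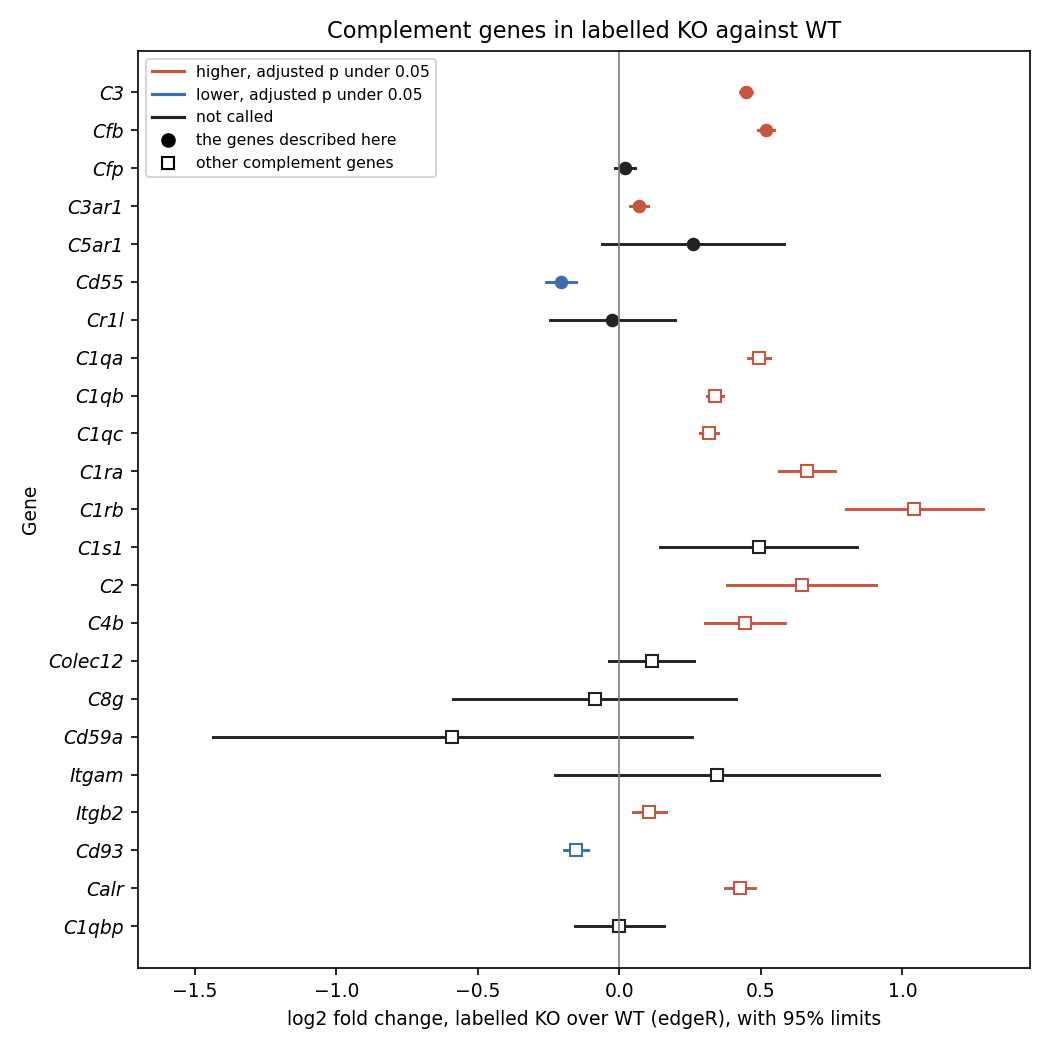
The log2 fold change between labelled KO and WT with 95% limits (horizontal axis) for the 7 tested genes described here (filled circles) and for the other tested complement genes, fluid phase regulators left out, with a group mean of at least 1 FPKM (open squares). C3 lies between C1qc and C1qa, Cfb lies just above C1qa, Cfp lies at 0, and Cd55 and Cd93 are the called genes below 0.

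Genes with the profile closest to C3 over the 6 libraries were Gbp2, Fcgr1 and Tgtp2, by the mean absolute difference between log2 values relative to the WT mean (0.0079, 0.012 and 0.017; 3967 genes with a mean of at least 10 FPKM were compared). Gbp2 and Tgtp2 encode interferon-inducible GTPases and Fcgr1 a high-affinity Fc receptor. Cfb was 30th in nearness to C3. The nearest to Cfb were Ctsc, Pilrb2 and Cd74 (0.0095, 0.01 and 0.0102), and the nearest to Cd55 were Gpnmb, Fgd2 and Tspan3 (0.0035, 0.0091 and 0.0093). With 2 groups of 3 libraries, nearness mostly reflects an alike fold change.

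Markers of other cell types were read beside these genes, since bulk libraries cannot tell fewer cells of a type from less RNA per cell. Of the 6 macrophage markers themselves, 3 rose and 1 fell: the log2 fold change was 0.26 for Csf1r, 0.32 for Mertk, 0.44 for Fcgr1 and -0.33 for Adgre1 (edgeR adjusted p = 3.14e-05, 0.000267, 4.32e-05 and 0.000368). All but Mertk have a mean of at least 100 FPKM, where 50.7% of tested genes were called. Over all tested genes 7.01% were higher and 5.67% lower. The summed level of the 6 macrophage markers was 2189 to 2274 FPKM in WT and 2325 to 2374 FPKM in labelled KO. Of 7 monocyte and progenitor markers 4 rose and 0 fell, and their summed level was 178 to 186 FPKM in WT and 240 to 251 FPKM in labelled KO. Of 10 neutrophil markers, 8 were tested, 2 rose and 1 fell, and the sum was 145 to 152 FPKM in WT and 151 to 163 FPKM in labelled KO. Csf3r was the largest part of this sum and rose from 92.8 to 106.8 FPKM (log2 fold change 0.19, edgeR adjusted p = 0.00278). Mpo also rose, from 0.197 to 0.553 FPKM (edgeR adjusted p = 0.0238), and Ltf fell from 1.72 to 1.33 FPKM (edgeR adjusted p = 0.0368). S100a9 (35.5 FPKM in WT, 29.1 FPKM in labelled KO) and S100a8 (15.8 and 16.8 FPKM) were not called. Ly6g, which defines neutrophils, was at or below 0.046 FPKM. The 6 stromal markers summed to 1.69 to 2.18 FPKM in WT and 1.77 to 1.98 FPKM in labelled KO. Each was below 1 FPKM in all libraries. Of these, Dcn rose, from 0.260 to 0.425 FPKM (log2 fold change 0.69, edgeR adjusted p = 0.0337). The 5 B cell markers summed to 2.03 to 2.15 FPKM in WT and 1.62 to 1.82 FPKM in labelled KO. The 6 T and NK cell markers summed to 6.53 to 6.90 FPKM in WT and 7.98 to 8.28 FPKM in labelled KO. Both sums were apart by group, and no single gene of these lists was called. The dendritic cell markers summed to at most 1.86 FPKM, with Siglech and Cd209a at a count of 0, and the mast cell and basophil markers to at most 0.343 FPKM, with Fcer1a and Ms4a2 at 0. Of the erythroid and megakaryocyte markers, Hbb-bs and Hba-a1 were at 0, and the sum, nearly all Pf4, was 177 to 183 FPKM in WT and 134 to 145 FPKM in labelled KO. The part of the macrophage, monocyte, neutrophil, lymphocyte, Dcn and Pf4 differences in the complement results was not tested.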

How the data were processed

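The submitters' processing notes name StringTie 1.3.4d, HISAT2 2.0.4, cutadapt 1.9 and build mm10. Settings, annotation release and strand are not stated there. Per the file headers, the table gives FPKM and estimated counts per gene and library, both made by the authors. Where the deposited count is 0, FPKM is listed as 0.0001. Without a stated strand, reads of overlapping genes cannot be told apart.

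Estimated counts, deposited as whole numbers, were rounded for edgeR 4.0.16 (R 4.3.3; TMM, filterByExpr with minimum count 10 and total 15, glmQLFit, glmQLFTest; Benjamini-Hochberg over 16256 genes; called under 0.05). Standard errors come from the F statistic and 95% limits from the test's own degrees of freedom. Permutation tests were exact (scipy 1.17.1). The pipeline was tested on simulated data in which every gene had the same spread beyond counting error. The real genes differ in spread, so that test does not show how often calls here are false. Promoters are from RefSeq (GRCm38.p6), and shared 50-base stretches from GENCODE transcripts of the same build.

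The 8 genes, lists and rule for naming genes (the 8 genes, Mettl3, up to 4 called genes of each complement subgroup or else its highest, and the 3 nearest profiles of C3, Cfb and Cd55) were chosen with earlier results of these data known. C2 was named as neighbour of Cfb, and Itgam and Itgax as integrin chains listed with Itgb2. For the fluid phase regulators no single gene is reported here. The alternatives tried were DESeq2 1.42.0, other scalings and filters, limma 3.58.1 on log2(FPKM + 0.1, 1 or 0.01), a replicate block and each library left out.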

Additional observations from a re-analysis of the deposited data

How the results depend on the processing

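Over 15 alternatives each, C3 (log2 fold change 0.44 to 0.46), Cfb (0.51 to 0.53) and Cd55 (-0.21 to -0.18) kept their calls, and Cfp, C5ar1 and Cr1l were never called. Between 3 and 4 of the 8 genes and 8 to 11 of the listed complement genes were called. Across these alternatives the count over all genes ran from 1012 (replicate block) to 2791 (DESeq2), each of 16256 tested. With DESeq2, 3 of the 8 genes and 11 of the listed ones were called. With 1 library left out, the count over all genes was 1244 to 1339 against 2060, in fits with fewer samples. In the same fits Mettl3 ran from -0.066 to 0.11 (also -0.055 without KO replicate 3) and Cr1l from -0.10 to 0.074 (without KO replicate 3), and the cause was not tested.

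A replicate block lowered the count over all genes to 1012 and the count among the 8 genes to 3. It ended the calls of C3ar1, C2 and Itgb2 and of no other complement gene named here. Same-numbered libraries did not deviate together (correlations -0.02, -0.01 and 0.02), and not every library correlated best with its own number, so the numbers were not taken as pairs. For the ratios of C3 to Cfb (-0.07) and C3 to Cd55 (0.65) pairing cannot change the mean difference, and the exact permutation p was 0.25 in place of 0.1, the smallest that each design allows. The planned ratio of C5ar1 to C5ar2 was not run, because C5ar2 had a count of 0 in a library of each group.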

Other observations

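In the KEGG term for the complement and coagulation cascades, as the authors annotated it in the deposited table and looked at after the values were known, 52 of 88 genes were tested. In the libraries labelled KO 16 of these were higher and 3 lower, with a median log2 fold change of 0.31. Over all tested genes 7.01% were higher and 5.67% lower. C3, Cfb, C3ar1, C5ar1 and Cd55 belong to the term, so it is not independent of them. Of the 9 terms looked at, the GO terms for complement activation (4 higher and 0 lower of 9 tested) and its alternative pathway (2 and 0 of 6) had medians of 0.40 and 0.29. C3 and Cfb are the 2 higher genes of the alternative pathway term and are among the 4 of complement activation. The term for the production of vascular endothelial growth factor had 6 higher and 0 lower of 20 (median 0.14), and C3 and C3ar1 are among the 6. These terms are therefore not independent of the 8 genes either. Medians were nearer 0 for the other terms: 0.09 for inflammatory response (46 higher and 19 lower of 241), 0.07 for G protein-coupled receptor signalling (33 and 27 of 238), 0.04 for angiogenesis (20 and 8 of 107), 0.03 for phagocytosis (10 and 10 of 57) and -0.02 for chemotaxis (10 and 15 of 88).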
